A study of Mus musculus with 9 samples.

Results

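MiR-297, miR-466, miR-467 and miR-669 are mouse miRNA families whose names follow each other with letters from a to q. Every row of the deposited count table with such a name was taken, with both arms and all copies, which gave 72 of 1448 rows. Of these, 6 rows belong to miR-297, 30 to miR-466, 11 to miR-467 and 25 to miR-669. By arm, 32 rows come from the 5p arm, 32 from the 3p arm, and 8 are listed without an arm.

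Small RNA was measured by HTS (high-throughput sequencing) in the hippocampus of C57BL/6J mice, with 3 libraries in each of 3 groups. The saline group received 0.9% saline. The LPS group was injected intraperitoneally once with 1 mg/kg LPS, a bacterial endotoxin used to provoke neuroinflammation, and 0.12% saline. The LPS + GAS group received the same LPS dose and 100 mg/kg of GAS (gastrodin), which the labels place 1 h after LPS. The labels name a single strain and no transgene. With the number of mice behind a library not given in the sources used here, the p-values below measure the spread between libraries. The methods also have GAS given together with LPS, so its timing is not settled.

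These families form a large miRNA cluster in an intron of Sfmbt2, a Polycomb group gene that is expressed from the paternal allele in mouse extraembryonic tissue. The cluster is specific to rodents, grew by repeated duplication, and many of its hairpins are built on UG repeats in one arm and CA repeats in the other. A miRNA recognises its targets mainly by its seed, bases 2 to 8 from the 5′ end, so copies that differ elsewhere can share targets, while a change within the seed gives another set.

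The table names 44 precursors for the 72 rows, and the sequences of all 44 matched hairpins of GENCODE release M21 on GRCm38, those of mir-669a-1 and mir-669p-1 at 2 loci each. Of these, 37 lie in Sfmbt2 (chr2:10370510-10595253, plus strand), all within an intron and on the strand of the gene, and they account for 64 rows. They occupy 51.6 kb of intron 10 of an annotated transcript with 23 exons (chr2:10461473-10523944), which is 62.5 kb long. The other 7 precursors lie on other chromosomes and give 8 rows, which together hold 262 reads, or 0.363% of the reads of the families. The sequence of miR-466f, assigned there to chromosome 13, also occurs in 3 hairpins of Sfmbt2. Only miR-466i-5p among these 8 rows passed the filter on low counts.

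The sequences below carry most of the reads of the families. They are the 10 members with the highest mean level, together with miR-297b-5p, grouped by seed, with the seed in capitals and letters as in the deposited table.
miR-467a-5p: uAAGUGCCugcauguauaugcg
miR-467c-5p: uAAGUGCGugcauguauaugug
miR-467d-5p: uAAGUGCGcgcauguauaugcg
miR-467e-5p: aUAAGUGUgagcauguauaugu
miR-297a-5p: aUGUAUGUgugcaugugcaugu
miR-297b-5p: aUGUAUGUgugcaugaacaugu
miR-297c-5p: aUGUAUGUgugcauguacaugu
miR-669l-5p: aGUUGUGUgugcauguauaugu
miR-669b-5p: aGUUUUGUgugcaugugcaugu
miR-669c-5p: aUAGUUGUguguggaugugugu
miR-669o-5p: uAGUUGUGugugcauguuuaugu
The 3 miR-297 sequences share a seed, and so do miR-467c-5p and miR-467d-5p. MiR-467a-5p has a seed of its own among the members, which miR-292a-3p, a row outside the families, also carries. The 63 distinct sequences of the families hold 37 seeds, of which 13 are carried by more than 1 sequence.

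The arms differed in base composition. Member 5p sequences had a median of 70.8% G or U, beside 59.1% in the 614 other 5p sequences of the table, and UG or GU made up a median of 52.4% of their neighbouring base pairs, beside 18.2%. Member 3p sequences had a median of 77.3% A or C, beside 50% in the other 3p sequences, and CA or AC made up 50% of their neighbouring base pairs, beside 14.3%. No member 3p sequence fell below 59.1% A or C. These are counts over letters of the table and were not tested.

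The libraries held 10119758 to 11457656 reads on miRNAs, and the families took 0.0615% to 0.121% of them when each sequence is counted once. Levels below are CPM (counts per 1000000 reads, with library totals scaled by TMM factors of 0.914 to 1.19), and errors are SDs of 3 libraries. As a check of the tissue, all 6 neuronal and brain miRNAs of a marker list (miR-124-3p, miR-9-5p and others) had reads in every library and summed to 99435 to 140963 CPM. The 4 miRNAs of choroid plexus summed to 9100 to 27360 CPM under saline, 9229 to 21152 under LPS and 11789 to 52762 under LPS + GAS. The 3 miRNAs of red blood cells summed to 2024 to 4264, 2149 to 3240 and 4538 to 6170 CPM. Nearly all of this was miR-451a (1966 to 4178, 2095 to 3173 and 4427 to 6049), whereas miR-486a-5p and miR-144-3p overlapped between the groups. The 4 miRNAs of microglia and leukocytes (4931 to 5325, 2569 to 6226 and 3679 to 5598), the 2 of oligodendrocytes (2738 to 4553, 1383 to 3494 and 2365 to 4308) and the 2 of endothelium (14663 to 17141, 13327 to 16791 and 15462 to 16059) all had reads in every library. MiR-204-5p made up most of each choroid plexus sum, and miR-150-5p most of each sum of microglia and leukocytes. The part of these cells in the values of the families was not tested, and in tissue RNA fewer cells of a type and less RNA per cell cannot be told apart.

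A few 5p sequences held most of the signal. MiR-467a-5p had 35914 of the 72083 reads of the families (49.8%), followed by miR-467e-5p with 8856, miR-467d-5p with 3264, miR-297a-5p with 3052 and miR-669b-5p with 2894. At the other end, 6 rows had no read in any library and 25 had at most 10 reads in all. By family, miR-467 took 70.0% of the reads, miR-669 15.4%, miR-297 8.21% and miR-466 6.37%, although miR-466 has the most rows.

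MiR-467a-5p counted 4256, 4547 and 3190 reads under saline, 3457, 6107 and 2997 under LPS and 4073, 3372 and 3915 under LPS + GAS. Its mean level was 376.7 ± 47.9 CPM under saline, 384 ± 109 CPM under LPS and 366 ± 21.7 CPM under LPS + GAS. LPS replicate 2 was the highest library, and the 3 groups overlapped. MiR-467e-5p counted 1051, 936 and 1008 reads under saline, 800, 1320 and 838 under LPS and 829, 862 and 1212 under LPS + GAS. Its groups overlapped too, at 94.9 ± 10.5, 91.2 ± 16.2 and 93.8 ± 20.5 CPM.

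**Figure D1:**
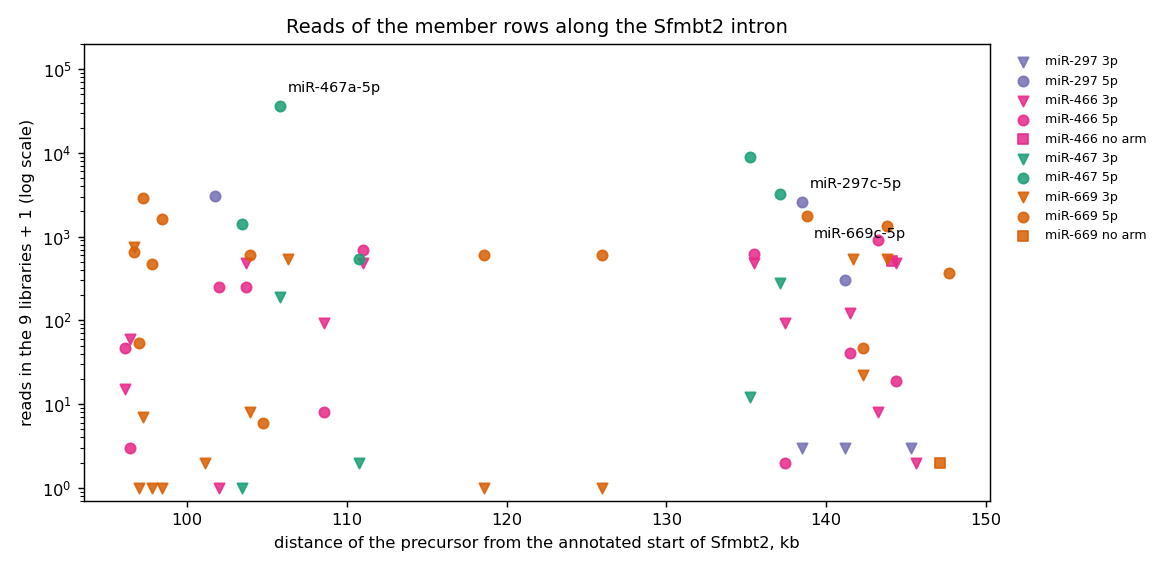
Reads summed over the 9 libraries, plus 1, on a log axis against the distance of each precursor from the annotated start of Sfmbt2 in kb, for the 64 rows in the intron, each drawn at every locus its precursor matched, with colour for the family and shape for the arm. The highest point is miR-467a-5p with 35914 reads, and miR-297c-5p and miR-669c-5p sit next to each other; rows with the same sequence show the same reads at each of their positions.

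The 5p arm held 94.9% of the reads of the families and the 3p arm 4.31%. For 28 precursors the table lists both arms, and the 5p arm had more reads in 21 of them. The 3p arm had more reads in the other 7, which are mir-466a, mir-466b-1, mir-466d, mir-466e, mir-466f-1, mir-466h and mir-669f. MiR-669l-5p had 1638 reads and its 3p arm none, whereas miR-466a-3p had 91 reads and miR-466a-5p had 1. The arms of mir-669f were nearly even, with 654 reads on the 5p arm and 752 on the 3p arm. Since several hairpins carry the same arm, these are ratios between rows and not between the products of 1 hairpin.

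**Figure D2:**
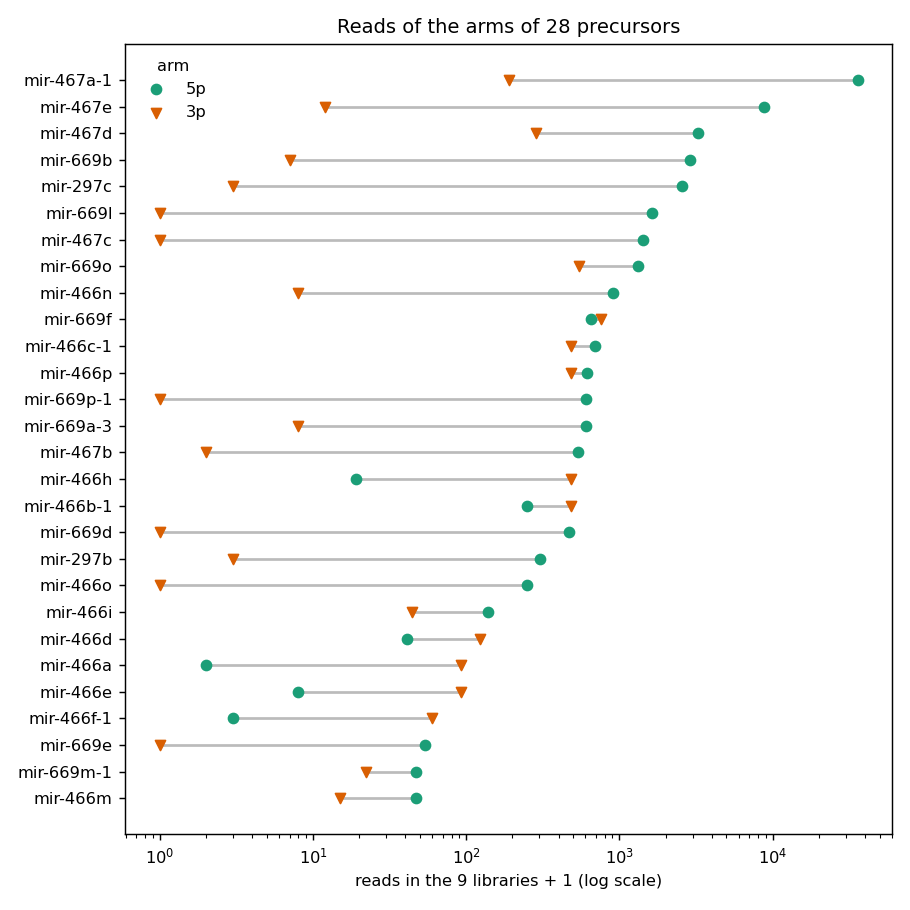
Reads summed over the 9 libraries, plus 1, on a log axis for the 5p arm (circles) and the 3p arm (triangles) of the 28 precursors with both arms listed, ordered by the higher arm. Circles lie to the right in 21 precursors, and 6 of the 7 precursors with the triangle to the right belong to miR-466.

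Sequence identity decided how rows could be read. Of the 72 rows, 16 fall into 7 sets with the same mature sequence, so that 9 rows repeat another one. In each of the 7 sets the rows had equal counts in every library, as they did in all 12 such sets of the whole table (27 rows). Rows of a set thus repeat the same counts, and whether each row holds all reads of the sequence or an equal part cannot be told apart from the table. If each held a part, counting a sequence once would give too low a total. MiR-466b-3p, miR-466c-3p and miR-466p-3p each counted 26, 61 and 43 reads under saline, 33, 121 and 62 under LPS and 42, 33 and 57 under LPS + GAS. MiR-669a-5p and miR-669p-5p each had 81, 60 and 55, then 66, 104 and 50, then 67, 37 and 81. The other sets are miR-669a-3p with miR-669o-3p (26 to 107 reads in a library), miR-466b-5p with miR-466o-5p (248 reads in all), miR-466a-3p with miR-466e-3p (91 in all), miR-466m-5p with miR-669m-5p (46 in all), and the 3p rows of miR-297a, miR-297b and miR-297c, whose 2 reads both came from saline replicate 3. Summing rows as listed would raise the miR-466 total in the saline group from 45.5 to 57.6 CPM.

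A row also stands for several hairpins. GENCODE M21 annotates 119 miRNA hairpins within Sfmbt2, of which 71 carry the names of these families, while the table gives 37. The sequence of miR-467a-5p occurs in 12 annotated hairpins, all in Sfmbt2, that of miR-669a-5p in 15 and that of miR-466b-3p in 15. Of the 63 distinct sequences, 33 occur in a single annotated hairpin and 30 in more than 1. MiR-467e-5p, miR-467d-5p, miR-467c-5p, miR-669l-5p, miR-669o-5p, miR-297b-5p, miR-297c-5p and miR-669c-5p are among those with a single hairpin. MiR-466i-5p is at the other extreme, since its sequence, uGUGUGUGugugugugugug, is a pure UG repeat that occurs in 61 annotated hairpins, none of them in Sfmbt2.

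Rows that were nearly but not fully identical had separate counts. Within an edit distance of 2 (substitutions, insertions or deletions) there were 40 pairs among the distinct sequences, 15 of them at a distance of 1, and in 23 pairs the lower row held under 5% of the reads of the pair. MiR-467e-5p and miR-467h differ by A10U (positions are counted from 1 at the 5′ end, with the base of the first-named sequence first), yet had 8856 and 10 reads. MiR-467h never exceeded 2 reads in a library. MiR-669d-5p and miR-669l-5p differ by C2G, which lies in the seed, and had 41 to 70 and 124 to 232 reads in a library. MiR-467c-5p differs from miR-467d-5p by U9C and U21C, outside the seed, and they had 1416 and 3264 reads. Against miR-467a-5p both have C8G, at the last base of the seed. The treatment of mismatches and shifted ends in that counting was not given in the sources used here. MiR-467a-5p and miR-467b-5p share a run of 20 bases shifted by 1, and both occur in the same 12 hairpins, with 35914 and 533 reads.

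Members near zero in single libraries were those with at least 100 reads in their highest library that fell under 1/20 of it in at least 1 library. This held for 7 of 415 rows of the table with at least 100 reads somewhere (1.69%) and for 2 of the 22 such members, miR-297c-5p and miR-669c-5p. Both were chosen on these values, which are therefore given as a description. The other 5 rows were miR-1298-5p, miR-448-3p, miR-532-3p, miR-532-5p and miR-744-5p.

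For miR-297c-5p the saline libraries counted 1, 646 and 0 reads. The LPS libraries counted 3, 909 and 408, and those of LPS + GAS 589, 3 and 0. The values fell into 5 libraries with at most 3 reads and 4 with at least 408, with nothing between them. Low and high libraries occurred in all 3 groups. LPS + GAS replicate 3 and saline replicate 3 had 0 reads among 10512667 and 10559954. A level of up to 3 reads could have been missed there by counting error, so 0 does not show absence. The cause of the low values was not tested.

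For miR-669c-5p the saline libraries were at 0.382, 26.3 and 25.4 CPM. The LPS libraries were at 0.199, 36.9 and 0.402, and those of LPS + GAS at 25.6, 21.6 and 26.6. It was low in 3 libraries, with at most 4 reads, and the others held at least 213. Low values occurred in the saline and LPS groups, and the saline and LPS + GAS groups still overlapped. Saline replicate 1 and LPS replicate 1 were low for both miRNAs, while LPS replicate 3 was low for miR-669c-5p and held 408 reads of miR-297c-5p. Saline replicate 3, LPS + GAS replicate 2 and LPS + GAS replicate 3 were low for miR-297c-5p and high for miR-669c-5p.

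The precursors of the 2 miRNAs are neighbours in the intron on the plus strand, with 182 bases between them, and each mature sequence occurs in no other annotated hairpin.

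**Figure D3:**
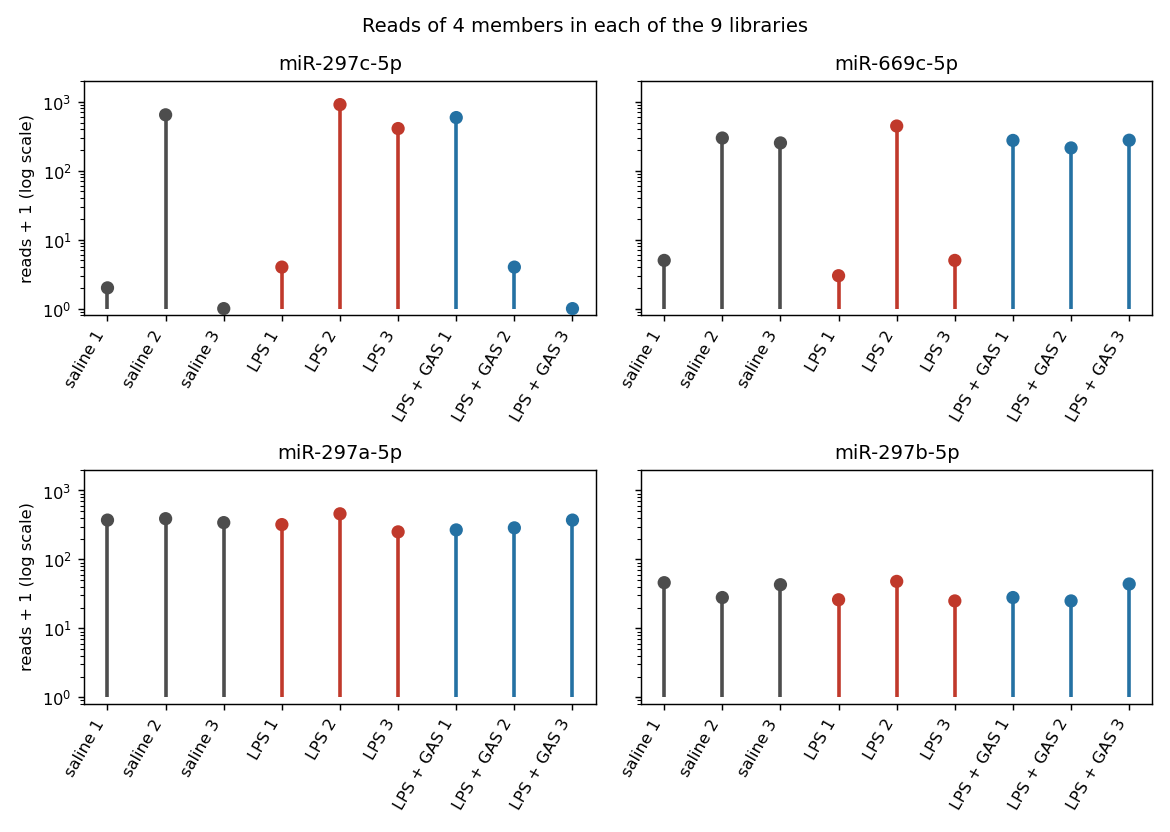
Reads plus 1 on a log axis in each of the 9 libraries (saline in grey, LPS in red, LPS + GAS in blue) for the 2 members near zero in single libraries and for miR-297a-5p and miR-297b-5p. MiR-297c-5p is at 0 to 3 reads in 5 libraries and miR-669c-5p at 2 to 4 reads in 3, whereas miR-297a-5p stays between 250 and 458 reads and miR-297b-5p between 24 and 47.

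The closest relatives of miR-297c-5p, miR-297a-5p and miR-297b-5p, had reads in every library. The 3 miR-297 5p sequences differ at bases 16 and 17, shown in capitals.
miR-297a-5p: auguaugugugcaugUGcaugu
miR-297b-5p: auguaugugugcaugAAcaugu
miR-297c-5p: auguaugugugcaugUAcaugu
From miR-297c-5p to miR-297a-5p the substitution is A17G, and miR-297a-5p counted 371, 389 and 341 reads under saline, 319, 458 and 250 under LPS and 267, 286 and 371 under LPS + GAS. From miR-297c-5p to miR-297b-5p it is U16A, and miR-297b-5p had 45, 27 and 42, then 25, 47 and 24, then 27, 24 and 43 reads. In reads, the highest value of both was in LPS replicate 2, where miR-297c-5p was also highest. In CPM this did not hold for miR-297b-5p, whose highest value was 4.30 in saline replicate 1. The 3 sequences together ranged from 313 to 1414 reads. For miR-669c-5p the nearest row was miR-669n at an edit distance of 2, which had 1 read in LPS + GAS replicate 2 and none in the other libraries.

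The table also holds a second whole number for each library, named exp, which never exceeds the read count, and it showed the same pattern. The exp values were 1, 644 and 0, then 3, 905 and 405, then 588, 3 and 0 for miR-297c-5p, or 99.6% of its reads. Over the families the exp values came to 98.5% of the reads, beside 41.6% over all rows. Their making was not given in the sources used here.

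As a description, the rows whose reads followed those of miR-297c-5p most closely over the 9 libraries were miR-191-3p (Spearman rho 0.94), let-7d-3p (0.87) and miR-700-5p (0.86). For miR-669c-5p they were miR-673-5p (0.90), miR-672-3p (0.88) and miR-467c-5p (0.84). None of these rows fell near 0, since miR-191-3p ranged from 327 to 522 reads and miR-467c-5p from 110 to 210, so the likeness is one of rank. These rows were picked as the highest in rho among all rows with at least 100 reads in some library. For miR-297c-5p, 5 of the 9 ranks rest on at most 3 reads. The points share their libraries and depth.

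The comparison of LPS with saline asks which miRNAs differ after endotoxin, and those of LPS + GAS ask which differ after gastrodin. A row was tested where it had at least 10 reads in at least 3 libraries, which 628 of 1448 rows and 36 of 72 members did, the 36 rows holding 30 distinct sequences. A call needed a change of at least 1 on the log2 scale and an adjusted p of 0.05 or less, by the quasi-likelihood test of edgeR with Benjamini-Hochberg adjustment over all 628 rows. Of the 36 member rows, 0 were called for LPS vs saline (0.0% of all rows), 0 for LPS + GAS vs LPS (0.0% of all rows) and 0 for LPS + GAS vs saline (0.159% of all rows). At an unadjusted p under 0.05 there were 1, 0 and 1 member sequences, among 15, 23 and 21 rows in all. The DESeq2 Wald test and limma-voom also called 0 members, with likewise 1, 0 and 1 at an unadjusted p under 0.05. The DESeq2 Wald test gave miR-669c-5p no adjusted p in any comparison, so this member could not be called there. With the replicate number as a block, edgeR again called 0, and 1, 0 and 0 members had an unadjusted p under 0.05.

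The fitted changes of the members were centred close to those of all rows. In LPS vs saline 13 of the 30 sequences had a log2 fold change above 0 and 17 below, with a median of −0.06 beside −0.04 over all 628 rows. In LPS + GAS vs LPS 14 lay above 0 and 16 below, with a median of −0.02 beside 0.00. In LPS + GAS vs saline 11 lay above and 19 below, with a median of −0.05 beside −0.03. The median standard error was 0.29 for members and 0.28 for all rows in each comparison. MiR-467a-5p, the most abundant member, had log2 fold changes of 0.03, −0.07 and −0.04 in the 3 comparisons, each with a standard error of 0.21.

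**Figure D4:**
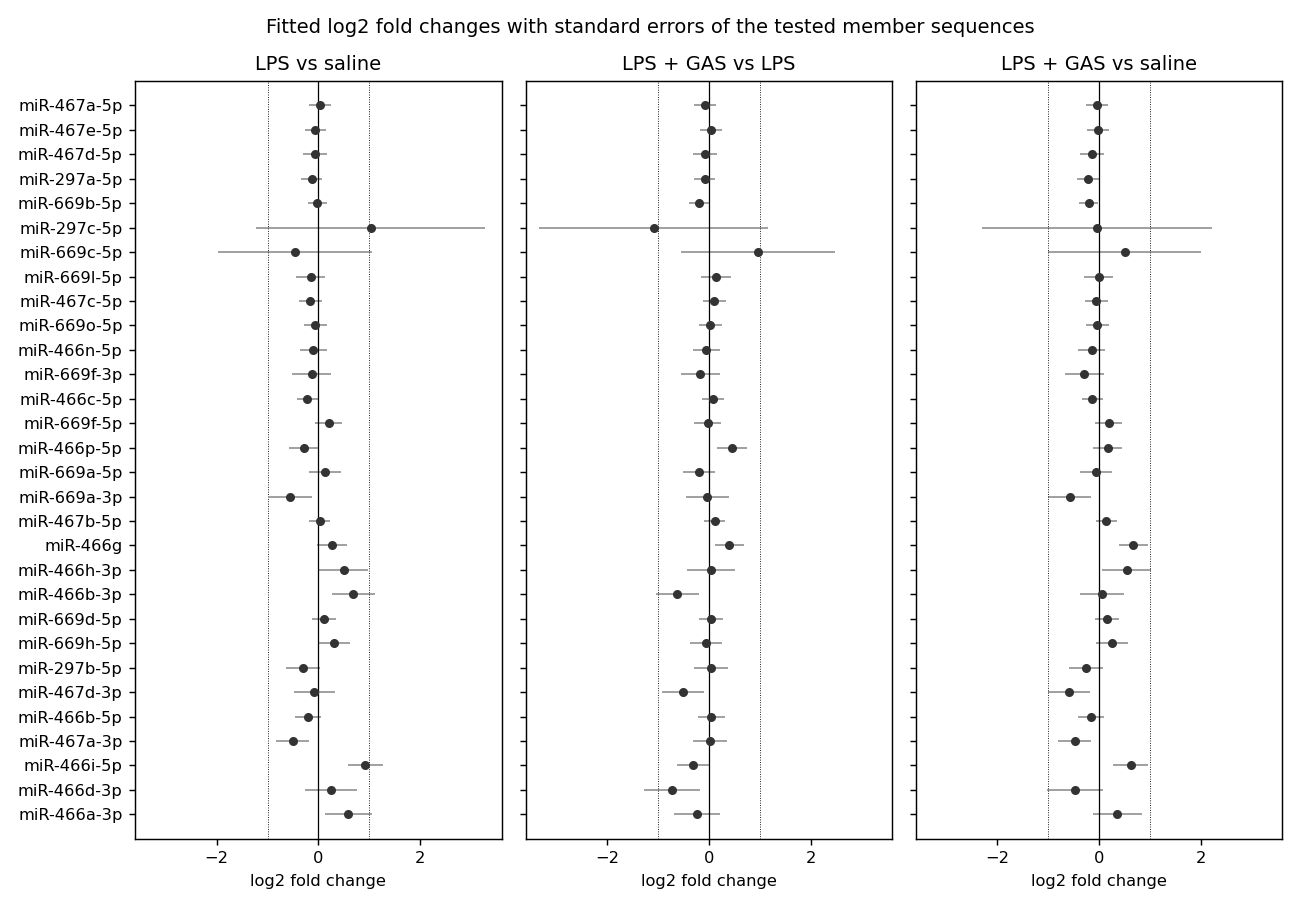
Fitted log2 fold changes (points) with standard errors (bars) of the 30 tested member sequences in the 3 comparisons, ordered by mean level, with dotted lines at −1 and 1. None of the members was called, and the widest bars belong to miR-297c-5p (2.25 in LPS vs saline) and miR-669c-5p (1.51).

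Among the members, the largest fitted change of both LPS vs saline and LPS + GAS vs LPS was that of miR-297c-5p. It had log2 fold changes of 1.03 ± 2.25 (standard error) for LPS vs saline and −1.08 ± 2.25 for LPS + GAS vs LPS, with edgeR adjusted p-values of 0.992 and 0.989. With each library left out in turn, the first of these ranged from 0.14, without LPS replicate 2, to 9.38, without saline replicate 2. The second ranged from −7.93, without LPS + GAS replicate 1, to −0.17, without LPS replicate 2. MiR-669c-5p had 0.97 ± 1.505 in LPS + GAS vs LPS, with a range from 0.39, without LPS replicate 1, to 6.31, without LPS replicate 2. In LPS vs saline it had −0.46 ± 1.51, with a range from −5.77, without LPS replicate 2, to 0.11, without LPS replicate 1. Their spread within groups on the log2(CPM + 1) scale, 3.26 and 2.16, ranked 2 and 4 of the 628 rows. Both were chosen for low values in single libraries, so these ranks are a description and no separate result. The other 28 member sequences had a median of 0.28, beside 0.28 over the 592 other rows. Each of these changes in the fit of all libraries was smaller than its own standard error.

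MiR-466i-5p and miR-466g were the members with an unadjusted p under 0.05 without the block. MiR-466i-5p, the pure UG repeat, counted 8, 8 and 15 reads under saline, 17, 21 and 22 under LPS and 15, 17 and 15 under LPS + GAS. The LPS libraries lay above the saline libraries in CPM without overlap, which held for 1 of the 30 member sequences and for 1.91% of all rows in this direction. Its log2 fold change was 0.92 ± 0.34, with an edgeR adjusted p of 0.992. In the opposite direction no member sequence was free of overlap, beside 1.91% of all rows.

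MiR-466g counted 55, 52 and 28 reads under saline, 50, 47 and 64 under LPS and 68, 57 and 84 under LPS + GAS. The LPS + GAS libraries lay above the saline libraries in CPM, again 1 of 30 member sequences, beside 2.55% of all rows, and 0 lay below, beside 4.78%. Its log2 fold change was 0.67 ± 0.29, with an edgeR adjusted p of 0.998. With the pairing of same-numbered libraries as a block it was 0.65 ± 0.31, with an unadjusted edgeR p of 0.0707. In LPS + GAS vs LPS 0 members were free of overlap in either direction, beside 4.14% of all rows with LPS + GAS higher and 4.46% with it lower.

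Among the remaining members with large fitted values, the sequence of miR-466b-3p had 0.68 ± 0.42 on the log2 scale in LPS vs saline. Its 121 reads in LPS replicate 2 were the highest value, and without that library the change was 0.25. MiR-466d-3p had −0.72 ± 0.54 in LPS + GAS vs LPS and 5 to 29 reads per library, and without LPS replicate 2 the change was −0.21. MiR-467d-3p had −0.59 ± 0.41 in LPS + GAS vs saline, with 25, 39 and 43 reads under saline and 24, 15 and 31 under LPS + GAS, so that the groups overlapped.

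LPS replicate 2 stood out within its group for these families. Their summed level, with each sequence counted once, was 758.4, 802 and 710.1 CPM under saline, 652, 1021 and 633 under LPS and 767, 651 and 795 under LPS + GAS. The group means were 757 ± 45.8, 768 ± 219 and 738 ± 76.6 CPM, and without LPS replicate 2 the LPS mean was 642 CPM. Of the 30 tested member sequences, 15 had their highest CPM in this library, beside 17.0% of all 628 rows. Without TMM scaling the count was 22 of 30, beside 33.3% of all rows. With TMM scaling, 0 member sequences had their lowest CPM in this library, beside 19.6% of all rows. The library was picked out on these values, which are therefore a description. This library also had the highest TMM factor, 1.19. After TMM scaling its summed CPM was the lowest of the 9 libraries for the markers of oligodendrocytes (1383) and of microglia and leukocytes (2569). It was also the lowest for those of endothelium (13327), with 14133 CPM next, in LPS replicate 1 (TMM factor 0.971). Marker sums without TMM scaling were not compared, and the part of scaling in these low sums was not tested. MiR-150-5p alone gave 2547 of the 2569 CPM of microglia and leukocytes. In the same list miR-223-3p was not at its lowest, with 5.90 CPM here and 3.78 in LPS replicate 1. The part of scaling in the high values of LPS replicate 2 was not tested beyond these counts, and that of the marker cells was not tested.

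By family, miR-467 summed to 565, 551 and 488 CPM under saline, 478, 692 and 433.4 under LPS and 519, 477 and 558 under LPS + GAS. MiR-669 had group means of 119 ± 17.3, 111 ± 33.7 and 119 ± 19.3 CPM, and miR-466 of 45.5 ± 1.54, 49.6 ± 11.1 and 49.3 ± 8.43 CPM. MiR-297 spread most, from 31.7 to 117 CPM, and its high libraries were the 4 with at least 408 reads of miR-297c-5p. The 3p rows summed to 26.7, 34.1 and 39.1 CPM under saline, 22.5, 45.8 and 36.7 under LPS and 25.3, 21.1 and 41.9 under LPS + GAS. In every family and in both arms the 3 groups overlapped. The 8 rows listed without an arm, with 505 of their 587 reads on miR-466g, summed to 6.30, 5.48 and 3.63 CPM under saline, 6.37, 4.82 and 7.04 under LPS and 6.91, 6.47 and 8.96 under LPS + GAS. There the LPS + GAS libraries lay above the saline libraries, as they did for miR-466g itself.

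**Figure D5:**
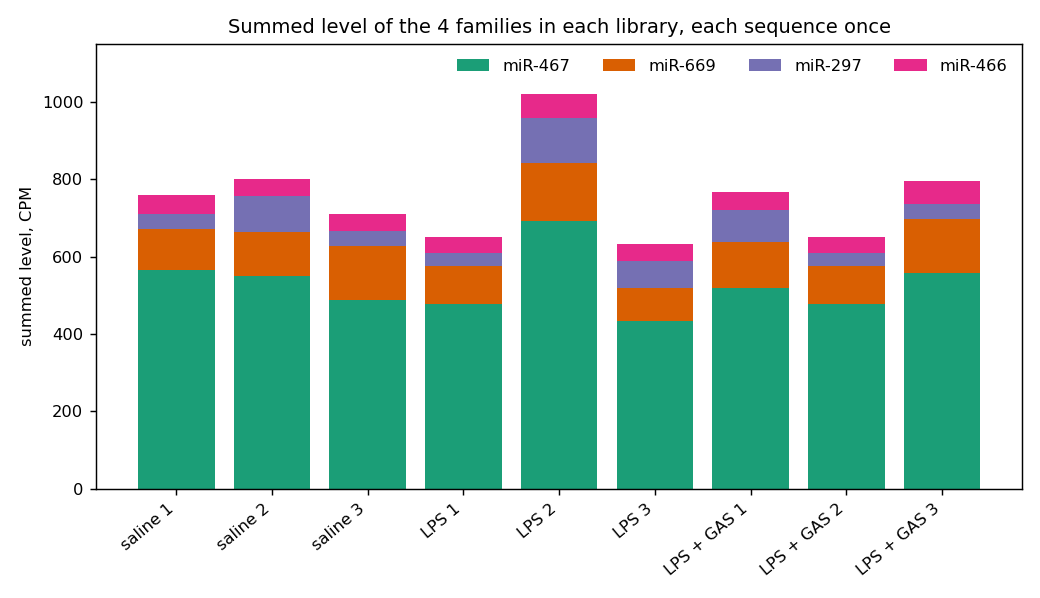
Summed CPM of the 4 families stacked for each of the 9 libraries, with each distinct sequence counted once. MiR-467 makes up most of every bar, LPS replicate 2 reaches 1021 CPM, and the miR-297 part is thicker in the 4 libraries with at least 408 reads of miR-297c-5p.

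For comparison, the other large imprinted miRNA cluster of the mouse, on chromosome 12, gave 77 tested rows in the same fit. Of these, 0 were called in any comparison, and their median log2 fold changes were −0.03 for LPS vs saline, −0.19 for LPS + GAS vs LPS and −0.18 for LPS + GAS vs saline. No test of the difference between the clusters was made.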

How the data were processed

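Small RNA was measured in 9 hippocampal libraries, 3 per group by the labels. The authors deposited 1 table of read counts per mature miRNA, not normalized, together with exp values (whole numbers, used as an alternative) and averages per group. The deposited log2 fold changes, p-values and q-values (DESeq2) of the authors' own comparisons entered no test. The submitters' processing notes name GRCm38.p6, with the aligner not given in the sources used here. All columns with a value per library were mapped to samples by name (0 left over).

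Counts were fitted in R 4.3.3 with edgeR 4.0.16 (TMM, glmQLFit and glmQLFTest on all 9 libraries, Benjamini-Hochberg adjustment over 628 rows). In each comparison the deviations of same-numbered libraries from their group means were correlated over rows. In LPS + GAS vs saline all 3 correlations were over 0.1 (0.216, 0.227 and 0.256), in LPS vs saline they were 0.344, 0.212 and −0.251, and in LPS + GAS vs LPS −0.163, 0.0344 and −0.229. From these correlations alone, only LPS + GAS vs saline was taken as possibly paired. The main fit used no pairing in any comparison, and the replicate block was an alternative run for all 3.

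Alternatives were DESeq2's size factors, the DESeq2 1.42.0 Wald test, limma 3.58.1 (voom), no filter, at least 50 reads in 3 libraries, a replicate block, exp values, identical rows merged, each library left out and no minimum fold change. The mean of the LPS group without LPS replicate 2 was added after the data had been seen. On simulated data for LPS vs saline (611 rows), the edgeR test recovered 191 of 192 rows changed by a log2 fold change of 2 and called 6 of 419 unchanged rows, DESeq2 190 and 5, and voom 189 and 6. The spread of the simulated rows was capped, and no library was set near zero. This recovery therefore does not apply to miR-297c-5p and miR-669c-5p, nor to changes under 2.

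Members were named if called in a comparison, among the 10 highest in mean CPM, near zero in single libraries, sharing a sequence with another row, the other arm of such a member, among the 3 largest fitted changes of a comparison, or a miR-297 row. Other members named were chosen after their values had been seen, for their sequence or arm. The members, lists and rules were chosen with earlier results of these data known. Edit distances were computed in Python 3.11.15, and host genes came from GENCODE M21.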

Additional observations from a re-analysis of the deposited data

How the results depend on the processing

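In all 3 comparisons 0 members were called under every alternative, including the replicate block, which changed no call. MiR-669c-5p had no adjusted p in the DESeq2 Wald test and could not be called there. The members near zero in single libraries were the same 2 at 1/10 and 1/50 of the highest library, with at least 50 reads and with exp values. They fell to 1, miR-669c-5p, when values were set against 1/20 of a median of at least 20 reads. MiR-297c-5p, with at most 3 reads in 5 libraries, did not reach that median and so could not be counted. At an edit distance of at most 1 there were 15 near-identical pairs in place of 40. The fitted log2 fold changes of the named members, none of them called, turned sign under some alternatives, and the cause was not tested. With each library left out in turn, LPS vs saline ranged from −0.22 to 0.79 for miR-466d-3p, −0.20 to 0.18 for miR-467a-5p, −0.49 to 0.22 for miR-467d-3p and −5.77 to 0.11 for miR-669c-5p. LPS + GAS vs LPS ranged from −0.22 to 0.20 for miR-467a-5p. LPS + GAS vs saline ranged from −6.85 to 8.28 for miR-297c-5p, −0.15 to 0.37 for miR-466b-3p, −0.75 to 0.061 for miR-466d-3p, −0.14 to 0.062 for miR-467a-5p and −0.027 to 0.99 for miR-669c-5p. In the same comparison miR-297c-5p had −0.05 in edgeR, 0.32 with voom and 1.565 with the replicate block, and miR-467a-5p had −0.04 in edgeR, 0.015 with DESeq2's size factors, 0.015 with the DESeq2 Wald test and 0.0073 without the filter. With 3 libraries per group, a median standard error of 0.29 and adjustment over 628 rows, changes near or under 1 on the log2 scale could not be told from 0 for most members. Larger ones could be missed too, since miR-466i-5p had 1.34 in LPS vs saline without saline replicate 3, with an edgeR adjusted p of 0.44. A further 36 of the 72 rows were too low to test.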
